A study of Oryza sativa with 6 samples.

Results

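A set of 59 probe sets on an Affymetrix rice array read lower in rice seedlings given an auxin and also in seedlings given a cytokinin than in seedlings given the solvent alone. They were chosen from 34256 probe sets bright enough to be tested, by their own values on these 6 arrays. On the scale of log2(intensity + 16), the mean of the indole-3-acetic acid (IAA, an auxin) arrays and the mean of the benzyl aminopurine (BAP, a cytokinin) arrays both had to lie at least 0.7 below the control mean, with all 4 hormone arrays below both control arrays. The genes VIT1.2, Nrat1, Lsi2, NIP2-1 and ILI6 are left out. Of these 5 genes, 3 met the numbers, so that 62 probe sets did so before they were removed.

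The 3 groups were 50 µM IAA, 50 µM BAP and a mock treatment with 0.1% dimethyl sulfoxide, and the labels give no solvent for the hormone groups. All were whole light-grown seedlings of the indica variety IR64 at 7 days of age. Equal parts of tissue taken after 1 h and 3 h were pooled before RNA extraction, so the timing of a change cannot be read. Each group had 2 biological replicates, according to the series design, with 1 array each.

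Auxin and cytokinin are the plant hormones best known for opposing each other. In roots, auxin favours the formation of lateral and crown roots and cytokinin restrains it, and each hormone has its own receptors and its own early target genes. The probe sets described here read lower under both. Only 20 of the 59 probe sets are paired with a single gene, 1 with several genes and 38 are unnamed here. Only 3 of the 20 genes carry a name: PRX74, PIP2-4 and a gene listed simply as bHLH.

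The arrays correlated across probe sets at r = 0.983 between the IAA replicates, 0.983 between the BAP replicates and 0.988 between the control replicates, where probe sets are not independent. The median deposited intensity lay between 16.6 and 23.1. The 2 BAP arrays had a scan day of their own, while IAA and control arrays shared a day, so that BAP and scan day cannot be told apart. IAA and BAP arrays were run in fluidics modules 3 and 4 and control arrays in modules 1 and 2, so that for a set lower in all hormone arrays, hormone and module cannot be told apart. Both comparisons with control also use the same 2 control arrays. A control array that reads high lowers both changes at once.

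The members read at 11.6 to 60.9% of the control intensity with IAA (median 35.1%) and at 12.3 to 60.8% with BAP (median 39.2%). The median change over the members was -0.97 with IAA and -0.88 with BAP on the log2 scale, against -0.01 with either hormone over all tested probe sets. An intensity of at most 50% of the control was seen in 51 members with IAA, in 43 with BAP and in 40 with both. On the log2(intensity + 16) scale, which understates changes of dim probe sets, the change was -1 or lower in 27 members with IAA, in 15 with BAP and in 7 with both. These values chose the members and describe them only. In tissue of whole seedlings, fewer cells of a type and less RNA per cell cannot be told apart.

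**Figure D1:**
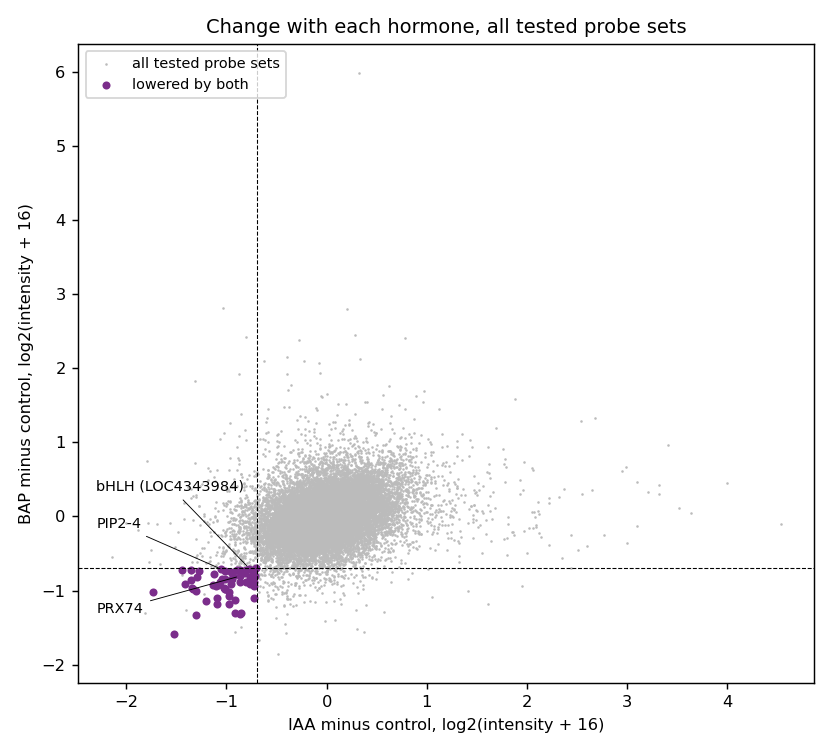
Change with IAA (horizontal axis) and with BAP (vertical axis) against control, both on the log2(intensity + 16) scale, for all 34256 tested probe sets (grey) and the 59 members (purple). The dashed lines mark the limit of -0.7, and the members fill the lower left corner by construction.

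The same numbers turned round found 79 probe sets raised by both hormones, 18 lowered by IAA and raised by BAP, and 7 raised by IAA and lowered by BAP. Since both changes share the control arrays, the larger numbers in the same direction are no evidence of a shared response. Over all tested probe sets, all 4 hormone arrays lay below both control arrays in 8.11%.

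In limma, 12 of the 59 members had an adjusted p of at most 0.05 for lower signal with IAA and 3 for lower signal with BAP. Over all tested probe sets 0.228% were called lower with IAA and 0.0701% with BAP. The rule used these contrasts, so nothing is read from the higher shares. The 3 called with BAP were Os.46740.1.A1_at, Os.56924.1.S1_at and OsAffx.121.1.S1_s_at, and all 3 were among the 12, which leaves 47 members called in neither comparison. Of the 12 calls with IAA, 1 held when control array 1 was left out, and 3 held when control array 2 or either of the IAA arrays was. Of the 3 calls with BAP, 0 held without either control array or either BAP array, and 2 held without IAA array 1.

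Of the 3 named genes, PRX74 (LOC4339222) had the smallest spread. It belongs to the class III peroxidases, secreted haem enzymes that use hydrogen peroxide to cross-link cell wall phenolics. PRX74 had intensities of 394 and 332 on the IAA arrays, 365 and 391 on the BAP arrays and 643 and 703 on the control arrays. The 4 hormone arrays lay close together and well apart from the control arrays. The change was -0.87 (SE 0.13) with IAA and -0.80 (SE 0.13) with BAP on the log2 scale, and it kept to the rule without any single array. In limma PRX74 was called with IAA (adjusted p = 0.0190) but not with BAP (adjusted p = 0.0521). The call with IAA was lost without either control array or either IAA array. With single arrays left out the change ran from -0.98 to -0.75 with IAA and from -0.87 to -0.74 with BAP.

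PIP2-4 (LOC4343119) encodes a plasma membrane intrinsic protein, an aquaporin that lets water pass the cell membrane. It was the brightest of the 59 probe sets in the control. Its intensity was 723 and 1192 on the IAA arrays, 1100 and 1273 on the BAP arrays, and 1812 and 2089 on the control arrays. The groups given hormone did not overlap with the control, as the rule required, and the IAA replicates lay further apart than the BAP replicates did. The change was -1.05 (SE 0.20) with IAA and -0.71 (SE 0.20) with BAP, so that with BAP it stood just inside the limit. In limma PIP2-4 was called with neither hormone (adjusted p = 0.0556 with IAA and 0.322 with BAP). With single arrays left out it met the rule in 3 of 6 cases.

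The third named gene, LOC4343984, is listed as bHLH, which is the name of the basic helix-loop-helix family of transcription factors. It had intensities of 102 and 71.3 on the IAA arrays, 112 and 72.8 on the BAP arrays and 167 and 149 on the control arrays. In both hormone groups the first replicate read higher than the second. The change was -0.77 (SE 0.22) with IAA and -0.70 (SE 0.22) with BAP, also close to the limit. This gene too was called with neither hormone in limma (adjusted p = 0.209 with IAA and 0.401 with BAP). It met the rule in 3 of 6 cases with single arrays left out.

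**Figure D2:**
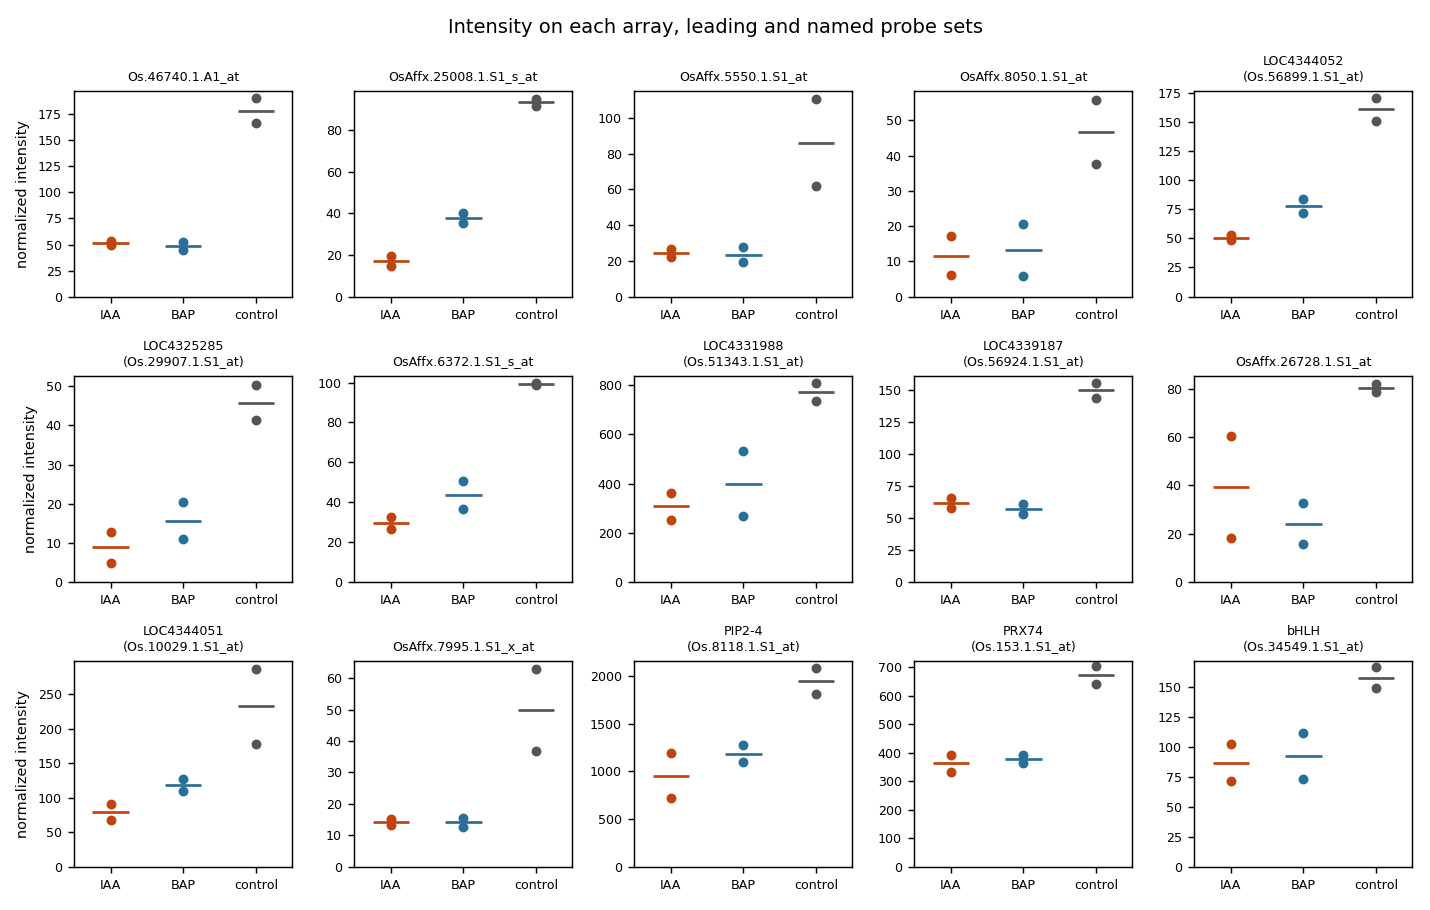
Normalized intensity on each array (points) with the mean of the 2 arrays (bar) for the 12 members with the lowest mean change and the 3 named genes, each on its own axis that starts at 0. In all 15 panels the IAA and BAP points lie below both control points, by construction.

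The member with the lowest mean of both changes was Os.46740.1.A1_at, a probe set unnamed here. It read 53.1 and 49.8 with IAA, 52.6 and 45.0 with BAP, and 190 and 167 in the control. The widest gap between the hormone arrays and the control arrays among the members was here, at 1.40 on the log2 scale. The change was -1.53 (SE 0.17) with IAA and -1.59 (SE 0.17) with BAP.

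OsAffx.25008.1.S1_s_at, likewise unnamed, had the lowest change with IAA, at -1.73 (SE 0.19), and a change of -1.03 (SE 0.19) with BAP. It read 14.5 and 19.4 with IAA, 40.3 and 35.2 with BAP, and 94.8 and 91.7 in the control. The 3 groups did not overlap, with the BAP arrays between the IAA and control arrays. Its ending, _s_at, marks a probe set whose probes match more than 1 transcript, and 7 members carry it.

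Of the other leading members without a single gene, 3 had IAA and BAP arrays that lay well below the control. OsAffx.5550.1.S1_at read 26.6 and 22.1 with IAA, 27.7 and 19.3 with BAP, and 61.7 and 111 in the control, with the control arrays well apart. OsAffx.6372.1.S1_s_at read 32.5 and 26.3 with IAA, 36.6 and 50.4 with BAP, and 99.6 and 99.0 in the control. OsAffx.7995.1.S1_x_at read 15.1 and 13.2 with IAA, 15.4 and 12.7 with BAP, and 62.9 and 36.9 in the control.

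In OsAffx.26728.1.S1_at and OsAffx.8050.1.S1_at the replicates of each hormone lay far apart. OsAffx.26728.1.S1_at read 18.0 and 60.7 with IAA, 32.7 and 15.6 with BAP, and 82.2 and 78.8 in the control. OsAffx.8050.1.S1_at read 17.0 and 6.02 with IAA, 20.7 and 5.76 with BAP, and 37.7 and 55.9 in the control. Its companion OsAffx.8050.1.S1_x_at, also a member, had the replicates the other way round, at 7.39 and 27.8 with IAA, 7.90 and 26.1 with BAP and 54.0 and 32.8 in the control.

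Among the leading members with a gene, LOC4344052 and LOC4344051 are near neighbours on chromosome 7, with 2 genes between them in the order of a japonica assembly and no tested probe set for either. LOC4344052 read 52.8 and 48.3 with IAA, 83.7 and 71.8 with BAP, and 171 and 151 in the control. LOC4344051 read 90.6 and 67.7 with IAA, 109 and 128 with BAP, and 177 and 287 in the control. Both were lowest with IAA, intermediate with BAP and highest in the control on every array. The changes with IAA and BAP were -1.41 and -0.92 (SE 0.17) for LOC4344052 and -1.36 and -0.85 (SE 0.23) for LOC4344051. Neither gene is described in the tables used here, and whether the probe sets share targets was not examined.

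A second, looser pair lay on chromosome 1, where 12 genes stand between LOC4325270 and LOC4325285. LOC4325285 read 4.78 and 12.8 with IAA, 20.3 and 10.8 with BAP, and 50.4 and 41.3 in the control. LOC4325270 read 23.2 and 6.02 with IAA, 6.01 and 4.88 with BAP, and 45.6 and 30.6 in the control. Both are dim. They are the closest pair of single-gene members on this chromosome, so the absence of a member between them follows from that choice.

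LOC4331988 was the brightest of the leading members, at 253 and 362 with IAA, 269 and 530 with BAP, and 810 and 738 in the control. The BAP arrays were spread further than the IAA arrays, and both stayed below the control arrays, as the rule required. LOC4339187 was tighter, at 65.4 and 57.5 with IAA, 60.8 and 53.3 with BAP, and 144 and 156 in the control. Its changes were -1.10 with IAA and -1.18 with BAP (SE 0.17).

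**Figure D3:**
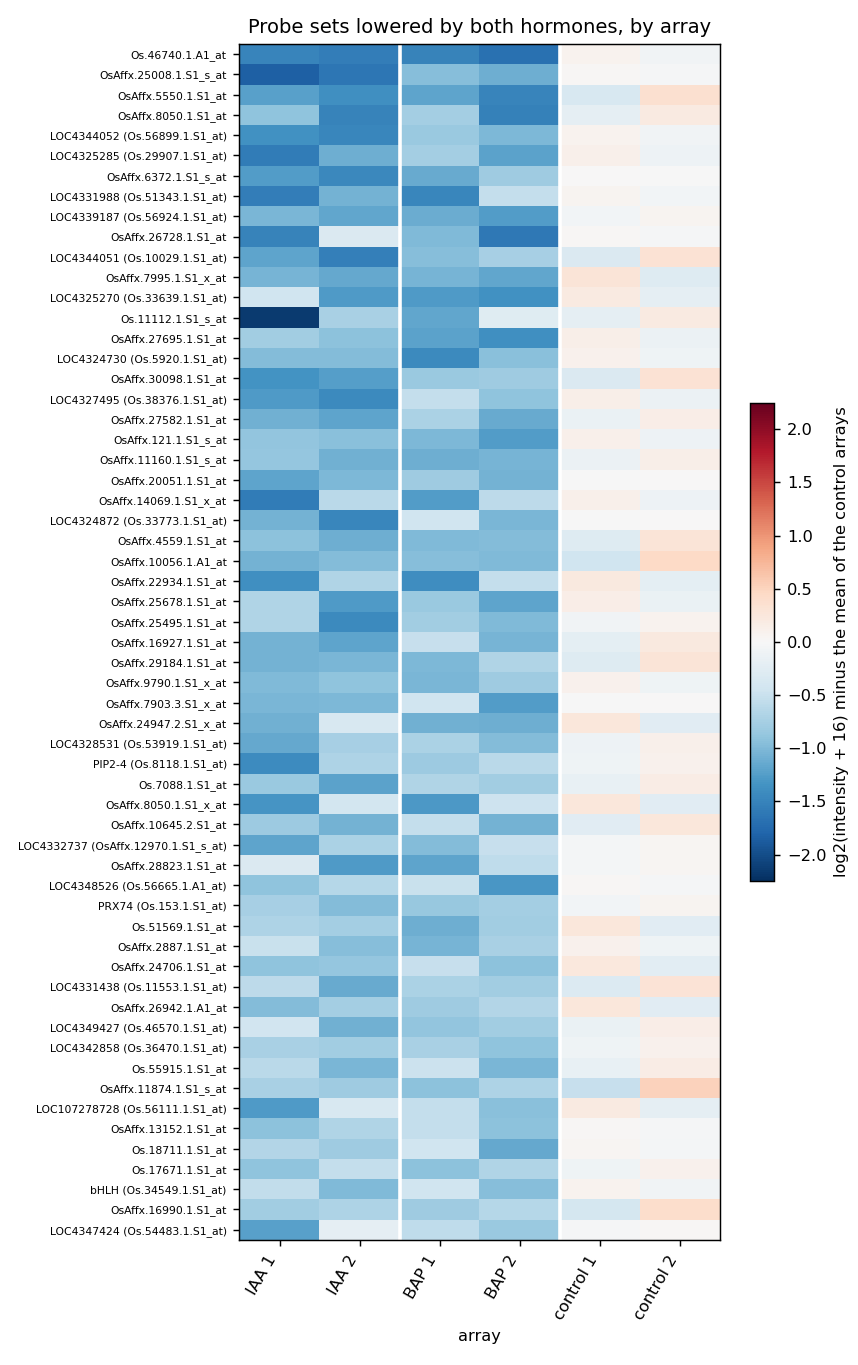
Each of the 59 members (rows, by the mean of both changes) on each of the 6 arrays (columns), as log2(intensity + 16) minus the mean of the control arrays. Blue is below the control mean, and all 4 hormone columns are blue in every row by construction.

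The median difference from the control mean over the members was -1.02 and -1.01 on the IAA arrays and -0.89 and -0.94 on the BAP arrays. Control array 1 was above control array 2 in 28 members and below it in 31. The rule used these values, so the medians and the split are descriptions only. The lowest of the hormone arrays was IAA array 1 in 17 members, IAA array 2 in 17, BAP array 1 in 9 and BAP array 2 in 16. The gap between the highest hormone array and the lower control array ranged from 0.08 to 1.40, with a median of 0.47. The smallest gap was that of Os.11112.1.S1_s_at, which read 10.0 and 54.5 with IAA, 35.8 and 80.0 with BAP, and 85.3 and 118 in the control.

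Most members were dim. The median of their group means was an intensity of 24.3 with IAA, 24.3 with BAP and 58.2 in the control, whereas over all tested probe sets it was 112 in each group. The group mean was under 16, the number added before taking logarithms, in 23 members with IAA and in 25 with BAP. In the control 38 members had a mean between 16 and 100, and 3 of these 38 were called with IAA and 0 with BAP. The other 21 members had control means of 100 or more, and 9 of the 21 were called with IAA and 3 with BAP. Replicates were also further apart on the log2 scale in the members than elsewhere, with a median SD of 0.18 with IAA, 0.22 with BAP and 0.18 in the control, against 0.14, 0.15 and 0.10 over all tested probe sets.

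**Figure D4:**
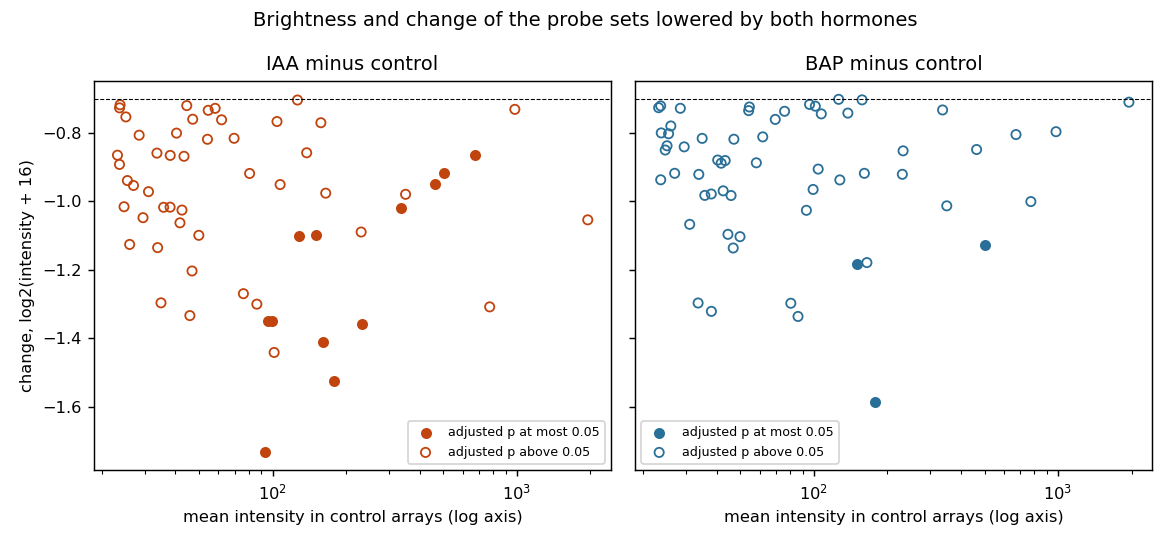
Mean control intensity (log axis) against the change with IAA (left) and with BAP (right) for the 59 members. Filled points had a limma adjusted p of at most 0.05, and 9 of the 12 filled points with IAA and all 3 with BAP have a control intensity of 100 or more.

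Probe sets named OsAffx made up 33 of the 59 members (55.9%), against 26.8% of all tested probe sets. The remaining 26 carried names that begin with Os alone. Of the members 33.9% were paired with a single gene, against 57.9% of those tested. Endings that mark shared probes (_s_at or _x_at) were about as frequent among the members as elsewhere, at 22.0% against 20.7%. No test was made of these shares.

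The single-gene members were spread over 8 chromosomes in the japonica order. Chromosomes 1 and 7 held 5 each, chromosome 3 held 3, chromosomes 5 and 10 held 2 each, and chromosomes 2, 4 and 9 held 1 each. Chromosome 7 had 1526 tested single-gene probe sets and chromosome 1 had 3076.

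At the limit of the rule the members graded into other probe sets. Just inside were LOC4347424, the bHLH gene and PIP2-4, whose smaller change was -0.70, -0.70 and -0.71. Just outside were LOC4344126, Os.31716.2.A1_at and OsAffx.23603.2.S1_at, at -0.70 each. LOC4347424 read 45.4 and 108 with IAA, 79.9 and 63.9 with BAP, and 123 and 130 in the control, where IAA array 2 nearly reached the control arrays.

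Other probe sets of the same genes or of the same numbered cluster were read beside the members. A companion that met the rule is itself a member, so only those that did not meet it are read here. This choice alone favours smaller changes, so their values are a description. There were 30 such probe sets, of which 14 were bright enough to be tested, and they belong to 8 of the members. In limma 0 of the 14 were called with IAA, 0 with BAP and 0 between the hormones, at a background of 0.882%, 0.289% and 2.29% in either direction. Their median change was 0.00 with IAA and -0.13 with BAP, and 6 of 14 lay below 0 with both. The lowest was OsAffx.14069.1.S1_at, at -0.83 with IAA (SE 0.29, adjusted p = 0.298) and -0.35 with BAP (SE 0.29). Its companion member read -1.09 and -0.92.

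For LOC4327495, the one gene with other tested probe sets of its own, these read differently from the member. The member Os.38376.1.S1_at read 30.3 and 25.3 with IAA, 61.0 and 43.9 with BAP, and 106 and 86.2 in the control, a change of -1.35 with IAA and -0.72 with BAP (SE 0.21). Its brighter companion Os.38376.1.S1_s_at read -0.10 with IAA and -0.26 with BAP (SE 0.14), and Os.38376.2.S1_at by -0.19 and -0.41 (SE 0.21). Of the 3 tested probe sets of this gene, 1 met the rule.

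The comparison of BAP with IAA asked whether the 2 hormones differed in the members. In limma 0 of the 59 passed, against 2.29% of all tested probe sets. The count was also 0 in every other setting of the fit that kept all 6 arrays. These settings reuse the same arrays, and with a floor of 6 only 23 of the 59 members were tested. At an unadjusted p under 0.05 there were 3 members (5.08%), against 12.7% of all tested probe sets. The rule fixed both changes at -0.7 or lower, which limits how far the hormones could differ here. It does not follow that both hormones act alike, since the intervals are wide.

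The difference of BAP minus IAA was above 0 in 37 members and below 0 in 22, from -0.46 to 0.72 with a median of 0.06. Its 95% interval lay between -1 and 1 on the log2(intensity + 16) scale in 49 of the 59, which for dim members leaves room for larger differences in intensity. For PRX74 the difference was 0.06, with an interval from -0.23 to 0.36 (limma adjusted p = 0.909). For PIP2-4 it was 0.34, from -0.11 to 0.80 (adjusted p = 0.552), and for the bHLH gene 0.07, from -0.43 to 0.57 (adjusted p = 0.943). The 3 members whose interval left out 0 were OsAffx.25008.1.S1_s_at at 0.71 (0.27 to 1.15, adjusted p = 0.122), Os.38376.1.S1_at of LOC4327495 at 0.63 (0.17 to 1.10, adjusted p = 0.211) and LOC4344052 at 0.49 (0.11 to 0.87, adjusted p = 0.236). All 3 read lower with IAA than with BAP.

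**Figure D5:**
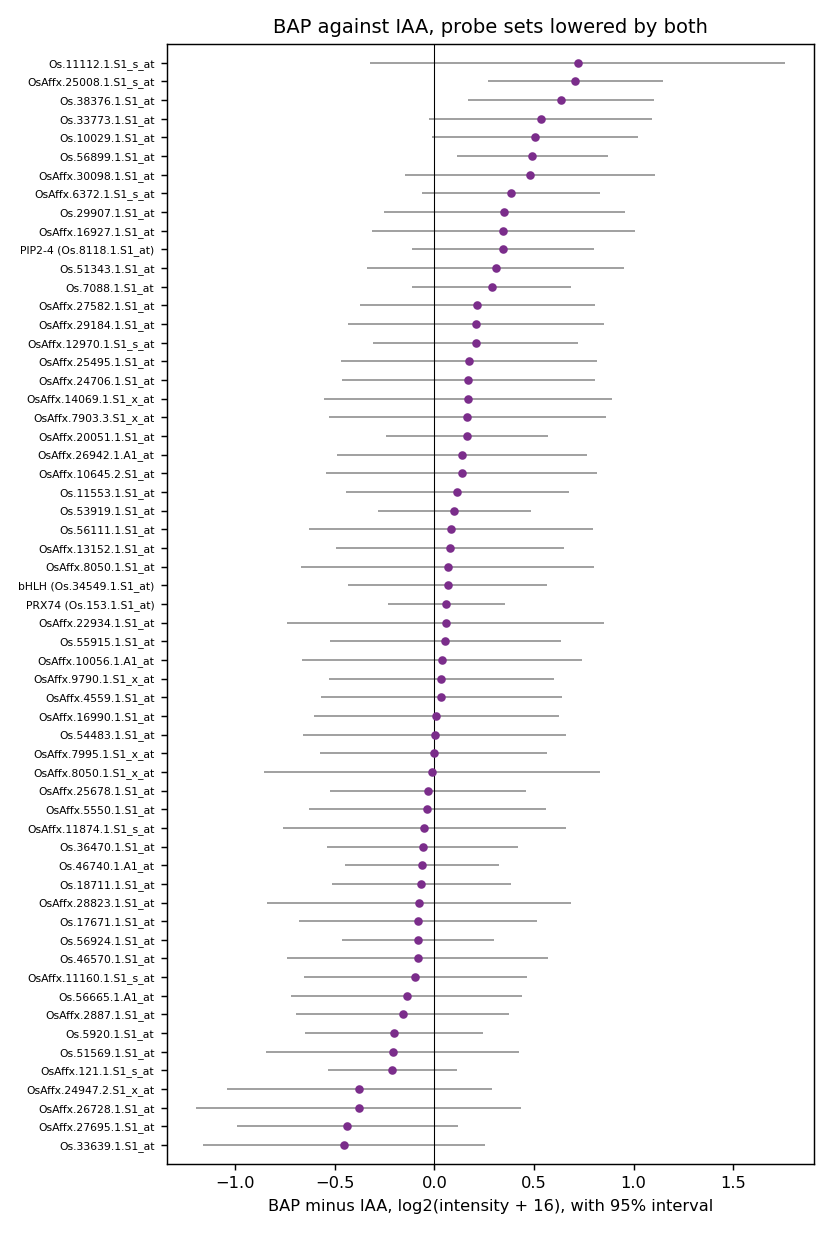
Difference of BAP minus IAA on the log2(intensity + 16) scale for each of the 59 members (points), with the 95% interval from limma (lines). The points run from -0.46 to 0.72, and 56 of the 59 lines cross 0.

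The families of the named members were also read as a whole. Of 25 aquaporin genes on the array 24 were tested, and PIP2-4 had the lowest change with IAA among them. With IAA 0 of the 24 passed in either direction (at a background of 0.882%), and with BAP 1 fell, the silicon channel gene NIP2-1 that the rule leaves out, by 0.89 on the log2 scale (SE 0.10, adjusted p = 0.00776), and 0 rose (at a background of 0.289%). That call was lost without either control array or either BAP array (adjusted p up to 0.118). The median change of the family was -0.08 with IAA and -0.07 with BAP, against -0.01 with either over all probe sets. With both hormones 14 of the 24 read below 0, and 8 without BAP array 2. All 4 hormone arrays lay below both control arrays in 4 of the 24, against 8.11% of all tested probe sets. PIP2-4, for which the rule required this, is among the 4, so nothing is read from the share.

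PIP2-4 stands close to 2 genes of its own subfamily on chromosome 7. PIP2-5 (LOC4343121), with 1 gene between, read 346 and 468 with IAA, 738 and 574 with BAP, and 630 and 721 in the control. Its change was -0.72 with IAA (limma adjusted p = 0.127) and -0.05 with BAP (adjusted p = 0.981). PIP2-1 (LOC4343122), next to PIP2-5, read -0.09 (adjusted p = 0.777) and -0.10 (adjusted p = 0.903). Close copies of a gene family can share signal on an array, which makes each copy's own level uncertain.

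Besides PRX74 the tables name only 1 other class III peroxidase on the array, PRX112. It read 298 and 229 with IAA, 495 and 495 with BAP, and 619 and 581 in the control. With IAA it fell by 1.15 on the log2 scale (SE 0.14, limma adjusted p = 0.00678), a call lost without control array 1 (adjusted p = 0.0893). With BAP the change was -0.27 (adjusted p = 0.767), and BAP differed from IAA by 0.88 (SE 0.14, adjusted p = 0.0151). That difference missed the threshold without IAA array 2 (adjusted p = 0.0654), BAP array 1 (0.0783) or BAP array 2 (0.0758). A second probe set of PRX112 read -0.02 with IAA and -0.01 with BAP.

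The numbered helix-loop-helix genes, to which LOC4343984 could not be joined by name, held no member, because ILI6 met the numbers but is left out. Of 11 tested, 2 rose and 1 fell with IAA, and 0 passed with BAP in either direction (at a background of 0.882% and 0.289%). The 2 that rose were BHLH172, by 2.99 (SE 0.24, limma adjusted p = 0.000597), and BHLH175, by 0.87 (SE 0.13, adjusted p = 0.0203). Leaving out either control array or either IAA array ended the call of BHLH175 (highest adjusted p 0.232). Its second probe set read -0.42 with IAA (adjusted p = 0.507) and -1.45 with BAP (adjusted p = 0.0265, up to 0.240 with a control or BAP array left out). The gene that fell was ILI6, which the rule leaves out, and its call was lost without control array 1 (adjusted p = 0.0616) or control array 2 (adjusted p = 0.0604).

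The other 14 gene lists, with transporters, wall proteins, enzymes and transcription factors, held 0 members too. In the metal transport list VIT1.2 met the numbers, at -1.82 with IAA and -1.31 with BAP, but the rule leaves it out. Together with the helix-loop-helix list the 14 lists had 5 calls lower and 6 higher with IAA, and 2 lower and 4 higher with BAP. These are over 271 genes, where 0.882% of all tested probe sets were called with IAA and 0.289% with BAP. Their median changes ranged from -0.21 to 0.47 with IAA and from -0.22 to 0.24 with BAP.

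Whole seedlings hold root and shoot, and genes known from either were read beside the members. Of 17 tested root genes, among them NAS1, IRT1, NRAMP5 and CASP1, 0 passed with IAA and 0 with BAP in limma (at a background of 0.882% and 0.289%). The median change was -0.17 with IAA and -0.26 with BAP. Their summed intensity was 27527 and 26524 with IAA, 24571 and 27456 with BAP, and 28149 and 30062 in the control. All 4 hormone arrays thus lay below both control arrays, as they also did in 6 of the 17 genes taken singly, against 8.11% of all tested probe sets. The part of root RNA in the lower signal of the members was not tested. No root gene was at 0, and the dimmest, IRT2, read between 4.23 and 16.1.

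Of the shoot genes 6 were tested, among them the photosynthesis genes RBCS and CAB2R. Their summed intensity was 19974 and 19989 with IAA, 20200 and 20913 with BAP, and 19065 and 19449 in the control. The median change was 0.09 with IAA and 0.08 with BAP. The photorespiration gene GLO1 rose with BAP by 1.04 (SE 0.16, limma adjusted p = 0.0371), the one call among the 6 in either comparison with control. Leaving out any array but BAP array 1 ended that call (highest adjusted p 0.220). The tested genes of both tissues read above 0 on every array, but whether each was detected was not tested.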

How the data were processed

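Biotin-labelled RNA was hybridised to 1 rice array per sample, per the labels. Each deposited value is a linear intensity of 1 probe set on 1 array. How the scans were summarised is not given in the sources used here. Scan day and fluidics module came from the deposited experiment files, which hold no other measurement that was used.

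Of 57381 probe sets, 187 array controls were left out. The rest were quantile normalized on the scale of log2(intensity + 16), where changes of dim probe sets are understated. Probe sets with a mean under 4.7 (an intensity near 9.99) were left out, which kept 34256 of 57194. Printed intensities are normalized values with the 16 subtracted again. The number of arrays limits the precision.

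Group means were fitted over all 6 arrays with limma 3.58.1 in R 4.3.3 (3 residual degrees of freedom, intensity trend, robust empirical Bayes). P-values are two-sided and Benjamini-Hochberg adjusted over 34256 probe sets, at a threshold of 0.05. Python 3.11.15, pandas 2.3.3 and matplotlib 3.10.9 drew tables and plots. The fit was tested on simulated data.

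Gene names came from the annotation of the platform and from the RefSeq table of the japonica assembly ASM3414082v1, used for names and gene order only: 22436 had 1 gene, 95 several and 34663 none. Of the members, 20 matched 1 gene. Members and gene lists were chosen with earlier results of these data known. Named were the 12 members with the lowest mean change, those with a name, those at the limit, and called genes of the families of named members; other lists are given as counts. The shared cluster numbers and the neighbouring genes were read after the values were seen.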

Additional observations from a re-analysis of the deposited data

How the results depend on the processing

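The choice of members depended on the settings. The rule found 276 probe sets with a pseudocount of 1 (all 59 members among them), 10 with 64, 23 with a floor of 6, 223 with a limit of -0.5 and 7 with a limit of -1, against 59. Without rescaling between arrays it found 81, and with each array centred on its median 75, and 58 of the 59 were kept in each. With single arrays left out it found 76 to 148, of which 41 to 48 were members. Of the 59, 18 met the rule without any single array, and 6 met it in all 12 settings other than the limits, PRX74 among them.

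Probe sets called with IAA numbered 302, against 668 without rescaling, 149 with no floor, 79 with no intensity trend and 84 to 288 with an array left out. The split was 224 higher and 78 lower, but 293 higher and 375 lower without rescaling. With BAP 99 were called, against 292 without rescaling, 60 with median centring, 40 with no floor, 13 with no trend and 12 to 88 with an array left out. The split was 75 higher and 24 lower, against 195 and 97 without rescaling. Between BAP and IAA 783 were called, against 369 with no floor, 206 with no trend and 318 to 594 with an array left out. Without rescaling 1167 were called between BAP and IAA, 763 higher and 404 lower, against a split of 389 and 394. The 14 aquaporin genes below 0 with both hormones became 8 to 15 with an array left out. The difference of BAP minus IAA turned sign with 1 array left out in the 3 named genes. It ranged from -0.011 (without IAA array 1) to 0.70 for PIP2-4 (Os.8118.1.S1_at), from -0.056 (without IAA array 2) to 0.18 for PRX74 (Os.153.1.S1_at), and from -0.20 (without BAP array 1; -0.15 without IAA array 2) to 0.33 for the bHLH gene (Os.34549.1.S1_at). The cause of these shifts was not tested.

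With the replicate number as a block, 352, 106 and 794 probe sets were called with IAA, with BAP and between them. Of the members, 17 and 4 were called with IAA and BAP in that fit, and 0 between them. Members called with IAA and with BAP numbered 12 and 3 in the main fit. They numbered 38 and 22 without rescaling, and 3 and 0 with no intensity trend. The correlation of same-numbered deviations was 0.02, 0.03 and -0.06, so same-numbered arrays showed little shared shift. Whether same-numbered samples were prepared together cannot be read from these values. Weak signal limits most of the members.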
